A study of Mus musculus with 6 samples.

Results

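The NLRP1 inflammasome genes described here are 10 genes, chosen by name from the 14005 genes listed for cultured mouse macrophages that had been differentiated from bone marrow (BMDM). They are the sensor genes Nlrp1a and Nlrp1b with the pseudogene Nlrp1c-ps, the peptidase genes Dpp8 and Dpp9, Pycard, Casp1, Gsdmd, Il1b and Il18, and all 10 were listed and tested. PolyA-selected RNA was sequenced in 2 groups of 3 libraries. The libraries labelled Txn1 KO carry Txn1tm1.1Ees/J, a targeted allele of the thioredoxin-1 gene, together with B6.129P2-Lyz2tm1(cre)lfo/J, a Cre recombinase placed in Lyz2, a gene active in myeloid cells. The other 3 libraries are wild type. Both groups have the background C57BL/6J and cells pooled from male and female mice, and the labels give neither an age nor a treatment. Libraries with Cre alone were not analysed here, so the Cre insertion and the Txn1 allele cannot be told apart. The question put in the study's design is whether these genes change when thioredoxin-1 is missing.

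NLRP1 is a cytosolic sensor that cuts itself within its own chain, and the fragments stay bound to each other. When the N-terminal fragment is degraded by the proteasome, the C-terminal fragment with its caspase recruitment domain is freed, forms filaments and recruits caspase-1, directly or through the adaptor ASC. DPP8 and DPP9, dipeptidyl peptidases of the cytosol, bind NLRP1 and hold the freed fragment back. Caspase-1 then cuts gasdermin D, which forms pores in the plasma membrane, and the precursors of interleukin-1 beta and interleukin-18, which leave through them. In mice the sensor is encoded by neighbouring paralogs, of which Nlrp1b is known as the target of the protease of anthrax toxin, to which the Nlrp1b allele of C57BL/6 does not respond.

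The libraries held 22508616 to 31127228 reads in the listed genes in Txn1 KO and 29716640 to 38726953 in wild type. Lyz2, which the Cre insertion interrupts, had 1775 to 4327 normalized counts in Txn1 KO and 361315 to 368284 in wild type, so it followed the labels in all 6 libraries. Txn1 had 11963 to 12695 normalized counts in Txn1 KO and 12155 to 13176 in wild type. The groups overlapped, and the log2 difference was -0.03 (SE 0.037; limma adjusted p = 0.686), or 98.2% of wild type with a 95% interval of 93.0% to 104%. The whole-gene value of Txn1 thus goes against the label: it shows no loss of Txn1 RNA beyond this interval. Reads of single exons were not examined, and why the value does not follow the label was not tested. The labels do not state the extent of the deletion. In what follows Txn1 KO is the label of these libraries, and each direction given is that of the libraries so labelled. All 8 macrophage markers examined were present, with summed levels of 134103 to 134940 in Txn1 KO and 137576 to 141006 in wild type. Within this sum 2 markers were called higher and 4 lower, among them Mertk, an efferocytosis receptor gene, with 3017 to 3317 normalized counts in Txn1 KO and 1909 to 2141 in wild type, and Fcgr1, an Fc receptor gene, with 5078 to 5644 in Txn1 KO and 8580 to 9087 in wild type. Of 6 dendritic cell markers 5 were listed and 1 was called higher, with sums of 329 to 370 in Txn1 KO and 233 to 282 in wild type. Most of these sums was Ccr7, at 274 to 313 in Txn1 KO and 184 to 230 in wild type. Flt3, Zbtb46, Xcr1 and Siglech were each at no more than 25.5 in any library. Of 8 neutrophil markers 4 were listed and 1 was called lower, with sums of 231 to 267 in Txn1 KO and 258 to 263 in wild type, and Ly6g and Elane were not listed. All 5 markers of T and NK cells and all 3 of red cells were not among the listed genes. All 5 stromal markers fell, with sums of 871 to 1475 in Txn1 KO and 1926 to 2150 in wild type, and the part of these marker differences in the results below was not tested. Txn1 KO library 3 and wild-type library 1 also held liver transcripts, the albumin gene Alb reaching 580.0 and 643 normalized counts and no more than 0.838 in any other library. In bulk RNA, fewer cells of a type and less RNA per cell cannot be told apart.

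Of the 10 genes, Pycard fell in the libraries labelled Txn1 KO, no gene rose, and 9 did not pass the test. The test was limma on log2(normalized count + 1) over 13977 genes with a mean of at least 10, at a Benjamini-Hochberg adjusted p under 0.05. Over all genes tested, 21.5% were called, 11.5% higher and 9.97% lower, so 1 lower gene among 10 is near the share of genes at large. The count was the same, 1 lower and 0 higher, with edgeR on the recovered reads, which called 21.2% of all genes (11.3% higher and 9.94% lower), and in the authors' deposited table, where 19.2% were called (10.4% higher and 8.87% lower). It was also the same without the 2 libraries with liver transcripts, where limma called 15.7% (8.79% higher and 6.89% lower). The members' median log2 difference was -0.07, beside -0.005 over all genes tested, and their median size of difference was 0.09, beside 0.13. For 5 of the 10 genes the libraries of the groups were fully apart, with Pycard, Casp1 and Gsdmd lower and Nlrp1c-ps and Il1b higher in Txn1 KO, where 36.2% of all genes tested had groups that did not overlap (18.5% higher and 17.6% lower). An unadjusted p under 0.05 was reached by 3 of the 10, against 32.3% of all genes tested (16.4% higher and 15.8% lower). These 3 were Nlrp1c-ps, Dpp9 and Pycard.

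**Figure D1:**
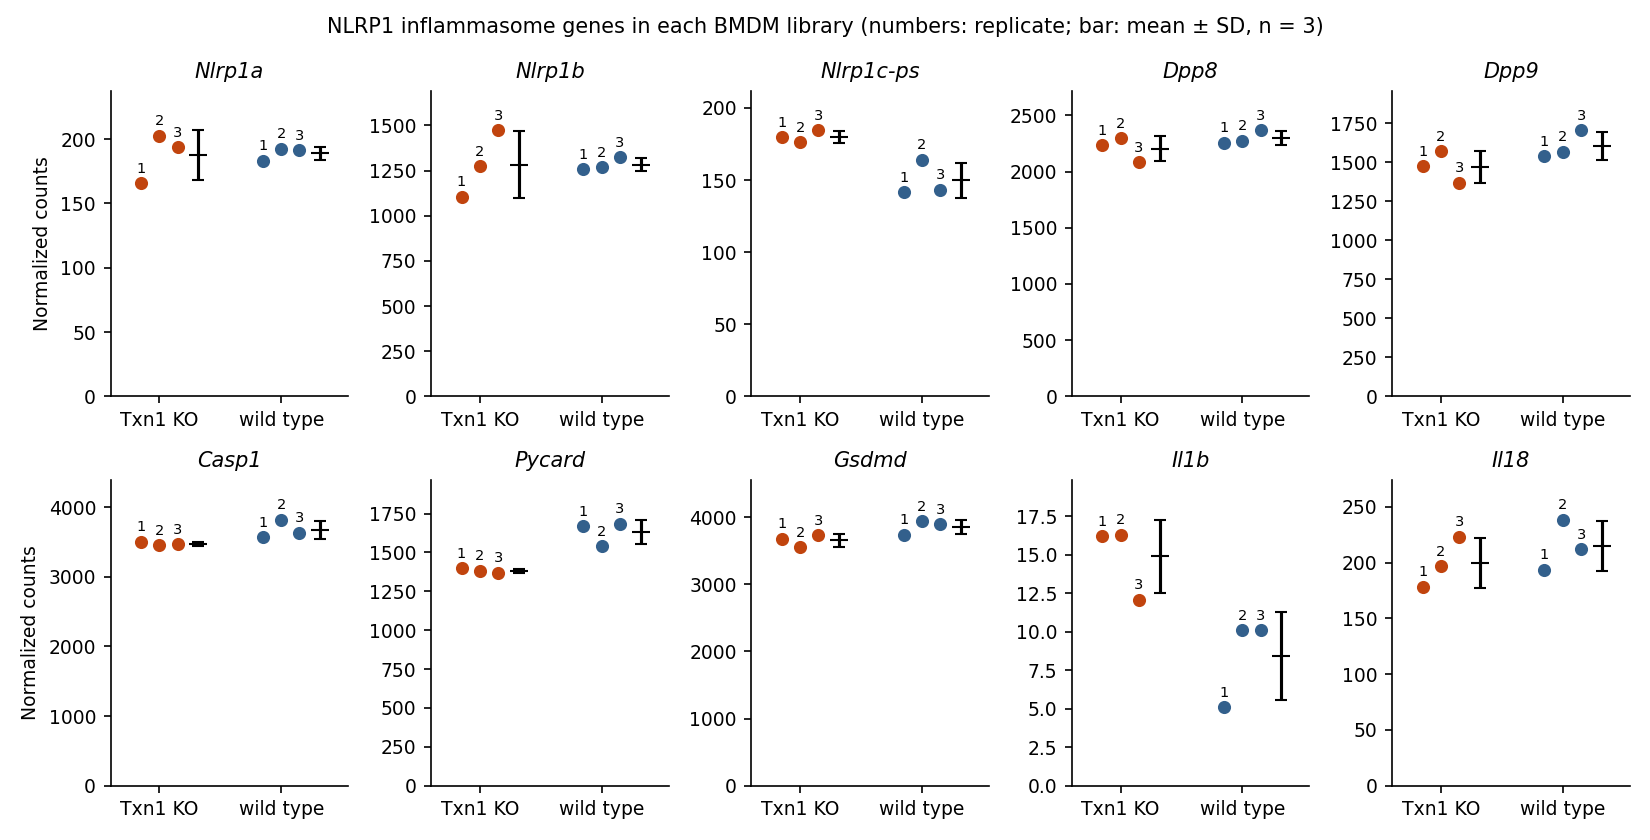
Normalized counts of the 10 genes in each library, with Txn1 KO on the left and wild type on the right of each panel, on axes that start at 0; numbers give the replicate and bars the mean ± SD (n = 3). Pycard separates the groups in all 6 libraries at 1370 to 1397 in Txn1 KO and 1541 to 1685 in wild type, and the Nlrp1b values of Txn1 KO spread on both sides of those of wild type.

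The sensor genes lie side by side on the minus strand of chromosome 11 (GRCm38), with Nlrp1a (ENSMUSG00000069830) at chr11:71092236-71144704, Nlrp1b (ENSMUSG00000070390) at chr11:71153102-71230733 and the transcribed pseudogene Nlrp1c-ps (ENSMUSG00000092528) at chr11:71242430-71285232. The coding sequences of Nlrp1a and Nlrp1b were identical at 85.7% of 3515 aligned bases. Paralogs this alike could share reads, so the annotated transcripts were searched for exact words that occur in another gene. Of the words of 50 bases, 2.07% in Nlrp1a, 1.45% in Nlrp1b and 0.792% in Nlrp1c-ps also occurred in another annotated gene. At 100 bases the shares were 0.0689%, 0.0476% and 0%, and at 150 bases no word of the 3 genes was shared. The longest run common to the principal transcripts of Nlrp1a and Nlrp1b is 102 bases, coding in both genes and within exon 9 of each, at chr11:71106006-71106107 and chr11:71163983-71164084, both minus strand. It is shown here as the longest stretch in which a read could not be told to come from one or the other gene, and shorter shared runs exist, of 57 bases at most between Nlrp1a and Nlrp1c-ps and 63 between Nlrp1b and Nlrp1c-ps:

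Nlrp1a and Nlrp1b, shared run: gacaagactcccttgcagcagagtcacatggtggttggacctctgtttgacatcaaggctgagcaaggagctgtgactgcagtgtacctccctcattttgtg

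The read length is not stated in the sources used here. Reads that align with mismatches were not considered in this search.

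The windows around the transcription start show how alike the 2 sensor genes are outside the coding sequence, and Pycard is set beside them as the member that fell. The sequences come from RefSeq on GRCm38.p6, where 8 of the 10 genes had a window of 250 bases before to 50 after a start. They read 5′ to 3′ on the gene's strand, and the capitals mark GAGGAAGT or its reverse complement, a PU.1-type ETS site, PU.1 being a transcription factor of the macrophage lineage.

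Nlrp1a, chr11:71144655-71144954, minus strand: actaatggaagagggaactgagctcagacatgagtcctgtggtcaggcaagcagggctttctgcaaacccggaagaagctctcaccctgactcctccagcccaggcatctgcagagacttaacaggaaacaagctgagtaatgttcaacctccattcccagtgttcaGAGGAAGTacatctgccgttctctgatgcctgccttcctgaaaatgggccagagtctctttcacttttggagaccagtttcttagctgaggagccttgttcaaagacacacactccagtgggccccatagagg

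Nlrp1b, chr11:71230684-71230983, minus strand: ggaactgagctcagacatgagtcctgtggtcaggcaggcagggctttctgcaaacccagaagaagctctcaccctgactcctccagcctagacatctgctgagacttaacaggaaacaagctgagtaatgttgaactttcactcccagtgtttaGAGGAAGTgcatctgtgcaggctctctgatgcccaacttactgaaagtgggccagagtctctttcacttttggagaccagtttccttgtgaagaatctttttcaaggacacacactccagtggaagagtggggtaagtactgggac

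Pycard, chr7:127993818-127994117, minus strand: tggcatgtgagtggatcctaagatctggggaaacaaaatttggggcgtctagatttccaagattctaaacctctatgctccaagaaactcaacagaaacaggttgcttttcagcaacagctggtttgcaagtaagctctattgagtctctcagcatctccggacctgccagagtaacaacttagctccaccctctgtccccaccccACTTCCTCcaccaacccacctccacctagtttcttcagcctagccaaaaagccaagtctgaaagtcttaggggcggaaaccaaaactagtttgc

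The Nlrp1a and Nlrp1b windows were identical at 253 of 286 aligned bases, or 88.5%, and the marked letters begin at -83 and -96 from the start. In Pycard they lie on the other strand and begin at -44. The windows of Il1b, Casp1, Il18, Dpp8 and Dpp9, which are not shown, do not hold these letters. Of 32544 distinct windows of all genes, 3.11% hold them on either strand. The other 4 motifs searched on both strands were the antioxidant response element core TGACNNNGC (12.4% of all windows), the interferon-stimulated response element, GAAA and again GAAA with any 2 bases between (3.45%), the NF-kB site, GGGA and TTCC with any 2 bases between (1.47%) and the TATA box TATAAA (13.6%). Of these, the TATA box was found in Il1b, beginning at -31, and in Il18, on the other strand and beginning at -175, and the other 3 were not in the members' windows. The first bases transcribed from this RefSeq start of Il18 were not found in a GENCODE M21 transcript of the gene. Its position of -175 thus holds for the RefSeq start only. These are matches of letters and say nothing of whether a factor binds there. Nlrp1b has another RefSeq start, with a window at chr11:71201407-71201706, which held none of the 5 motifs.

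Nlrp1b did not differ between the groups beyond its spread. It had 1104, 1273 and 1472 normalized counts in Txn1 KO and 1256, 1267 and 1323 in wild type. The wild-type libraries lay close together, while Txn1 KO library 1 was below and library 3 above all of them. The means were 1283 ± 185 in Txn1 KO and 1282 ± 35.9 in wild type (SD, n = 3 each), and the ratio on the log2 scale was 99.4% of wild type with a 95% interval of 89.0% to 111% (limma adjusted p = 0.956). Without Txn1 KO library 1 the log2 difference was 0.09, and without library 3 it was -0.11, neither of them called.

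Nlrp1a had 165.8, 202.8 and 193.8 normalized counts in Txn1 KO and 183.4, 192.7 and 191.2 in wild type. Again Txn1 KO library 1 was the lowest of the 6, and the groups overlapped. The means were 187.5 ± 19.3 in Txn1 KO and 189.1 ± 4.99 in wild type, and the ratio on the log2 scale was 98.8% of wild type with a 95% interval of 83.7% to 117% (limma adjusted p = 0.943).

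Nlrp1c-ps, which encodes no full sensor, had 179.7, 176.1 and 184.4 normalized counts in Txn1 KO and 141.6, 164.0 and 143.4 in wild type. Every Txn1 KO library was above every wild-type library, by 0.27 on the log2 scale (95% interval 0.02 to 0.51), but the adjusted p was 0.120 with limma, 0.127 with edgeR on the recovered reads and 0.255 in the authors' deposited table. In Txn1 KO library 1 Nlrp1a and Nlrp1b were 0.18 and 0.21 below their own means over 6 libraries (log2), and Nlrp1c-ps was 0.13 above its mean. The ratio of Nlrp1b to Nlrp1a within a library was 6.66, 6.27 and 7.6 in Txn1 KO and 6.85, 6.57 and 6.92 in wild type. The groups overlapped in this ratio (exact two-sided permutation p = 0.9, and 0.9 adjusted over 6 such ratios). Whether Nlrp1c-ps differs from Nlrp1a and Nlrp1b in its response was not tested.

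Summed over the 3 genes, the level was 1449, 1651 and 1850 normalized counts in Txn1 KO and 1581, 1623 and 1658 in wild type. The split of counted reads among the 3 genes has no effect on this sum. Shared reads that were left uncounted, if any, are missing from it as well. The means of 1650 ± 201 in Txn1 KO and 1621 ± 38.2 in wild type differed by less than the spread between libraries (exact two-sided permutation test, p = 0.8, where 0.1 is the smallest p this design allows). Nlrp1b supplied 76.2% to 79.6% of the sum in Txn1 KO and 78.0% to 79.8% in wild type.

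The 10 nearest genes tested, 5 on each side of the cluster, were examined for a change shared along the chromosome. Derl2, which encodes a protein of endoplasmic reticulum-associated degradation 72.4 kb from the cluster, rose, with 3386 ± 190 normalized counts in Txn1 KO and 3008 ± 77.1 in wild type (log2 0.17 ± 0.044, SE; limma adjusted p = 0.0105). The other 9 did not pass, and 1 higher gene among 10 is near the 11.5% of all genes tested that were called higher. The 5 on the side of Nlrp1a, within 114 kb, had differences of 0.07 (Rpain), 0.10 (C1qbp), 0.17 (Dhx33), 0.17 (Derl2) and 0.08 (Mis12). On the side of Nlrp1c-ps the nearest gene tested was 743 kb away, and the differences were -0.15 (Aipl1), 0.02 (Pimreg), -0.07 (4933427D14Rik), -0.08 (Txndc17) and -0.21 (Med31).

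**Figure D2:**
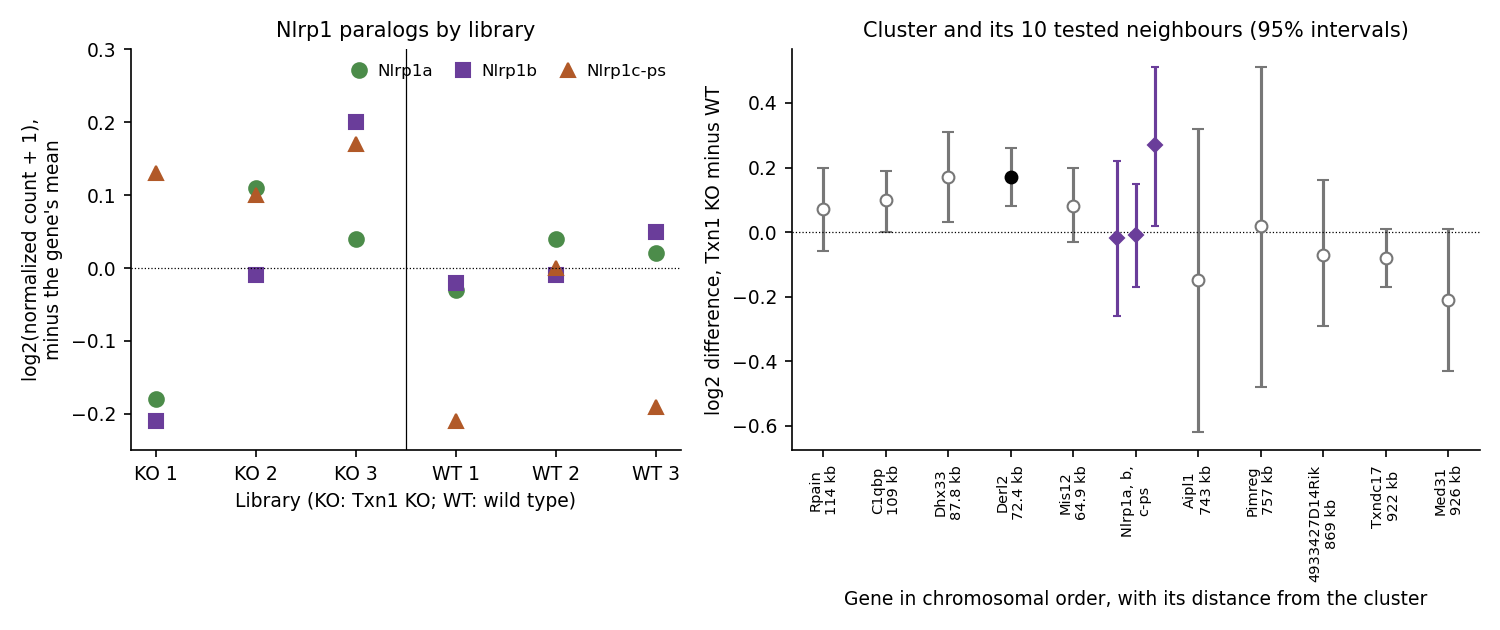
Left, the 3 Nlrp1 paralogs in each library, as log2(normalized count + 1) minus the gene's mean over 6 libraries; Nlrp1a and Nlrp1b are lowest in Txn1 KO library 1, at -0.18 and -0.21, where Nlrp1c-ps is at 0.13. Right, the log2 difference (Txn1 KO minus wild type) with 95% intervals of the paralogs (diamonds) and the 10 nearest genes tested (circles, filled where the adjusted p is under 0.05), of which Derl2 was called at 0.17.

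Dpp8 and Dpp9, the peptidase genes whose products restrain NLRP1, had log2 differences below 0, and neither passed the test. Dpp8 (ENSMUSG00000032393, chr9:65032414-65082651, plus strand) had 2232, 2296 and 2081 normalized counts in Txn1 KO and 2256, 2275 and 2366 in wild type. The groups overlapped, and the 95% interval of the log2 difference ran from -0.16 to 0.03 (limma adjusted p = 0.379). Dpp9 (ENSMUSG00000001229, chr17:56186807-56218905, minus strand) had 1477, 1571 and 1369 normalized counts in Txn1 KO and 1539, 1569 and 1705 in wild type. Its Txn1 KO library 2 lay within the wild-type range, and the log2 difference of -0.12 did not pass (95% interval -0.24 to -0.01; limma adjusted p = 0.136). For both genes Txn1 KO library 3 was the lowest of the 6. Without it the log2 difference was -0.02 for Dpp8 and -0.07 for Dpp9. Without Txn1 KO library 2 the difference was -0.09 for Dpp8 and -0.17 for Dpp9 (limma adjusted p = 0.241 and 0.0607).

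Pycard (ENSMUSG00000030793, chr7:127989708-127993867, minus strand) encodes ASC, the adaptor that links a sensor to caspase-1 and gathers into a speck. It had 1397, 1383 and 1370 normalized counts in Txn1 KO and 1669, 1541 and 1685 in wild type. The Txn1 KO libraries were close to each other and all lay below the lowest wild-type library. Pycard fell to 1383 ± 13.4 in Txn1 KO, against 1632 ± 79.0 in wild type, or 84.8% of wild type with a 95% interval of 79.0% to 91.1% (limma adjusted p = 0.00167). It was also called with edgeR on the recovered reads (adjusted p = 0.00159), in the authors' deposited table (adjusted p = 0.000613) and without any one library. Without both libraries with liver transcripts the log2 difference was -0.21 (limma adjusted p = 0.0294). Of the exons of Pycard, 12.8% overlap Gm45205 on the other strand, which is not among the listed genes. Dpp8 overlaps Gm47350 (2.31% of its exons) and Il1b overlaps Il1bos (1.31%) on the other strand. Whether the counting used strand is not stated in the sources used here.

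Casp1 (ENSMUSG00000025888, chr9:5298517-5307265, plus strand), the protease gene, had 3502, 3452 and 3463 normalized counts in Txn1 KO and 3565, 3819 and 3630 in wild type. The groups did not overlap, but the gap between the highest Txn1 KO and the lowest wild-type library was small. Its log2 difference was -0.08 (95% interval -0.16 to 0.00; limma adjusted p = 0.162). The ratio of Pycard to Casp1 counts within a library, which does not depend on the scaling, was 0.399, 0.400 and 0.396 in Txn1 KO and 0.468, 0.404 and 0.464 in wild type. The groups were apart in this ratio, and its exact two-sided permutation p was 0.1, the smallest this design allows (0.2 adjusted over 6 such ratios).

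Gsdmd (ENSMUSG00000022575, chr15:75862327-75867408, plus strand), the pore gene, had 3682, 3553 and 3736 normalized counts in Txn1 KO and 3739, 3944 and 3892 in wild type. Txn1 KO library 3 and wild-type library 1 nearly met. The log2 difference was again -0.08 (95% interval -0.16 to 0.00; limma adjusted p = 0.175), and it was -0.12 without these 2 libraries, which are also those with liver transcripts (limma adjusted p = 0.0606).

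Il18 (ENSMUSG00000039217, chr9:50554827-50581840, plus strand), the gene of interleukin-18, which macrophages make without prior stimulation, had 178.5, 197.1 and 223.4 normalized counts in Txn1 KO and 193.6, 238.6 and 212.1 in wild type. The groups overlapped, with means of 199.7 ± 22.6 in Txn1 KO and 214.8 ± 22.6 in wild type (limma adjusted p = 0.594). Il1b (ENSMUSG00000027398, chr2:129364570-129371139, minus strand), which macrophages switch on when stimulated, was near the limit of detection. It was seen with 14, 17 and 9 reads in Txn1 KO and 5, 13 and 12 reads in wild type, or 16.2, 16.3 and 12.1 normalized counts against 5.09, 10.1 and 10.1. All Txn1 KO libraries were above all wild-type libraries after scaling, while their read counts overlapped. The log2 difference of 0.79 had a 95% interval from -0.17 to 1.75 (limma adjusted p = 0.248). Without wild-type library 1 it was 0.51. On the ratio scale the interval ran from 89.1% to 337% of wild type, so these few reads leave a wide range of increases and a small decrease undistinguished.

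**Figure D3:**
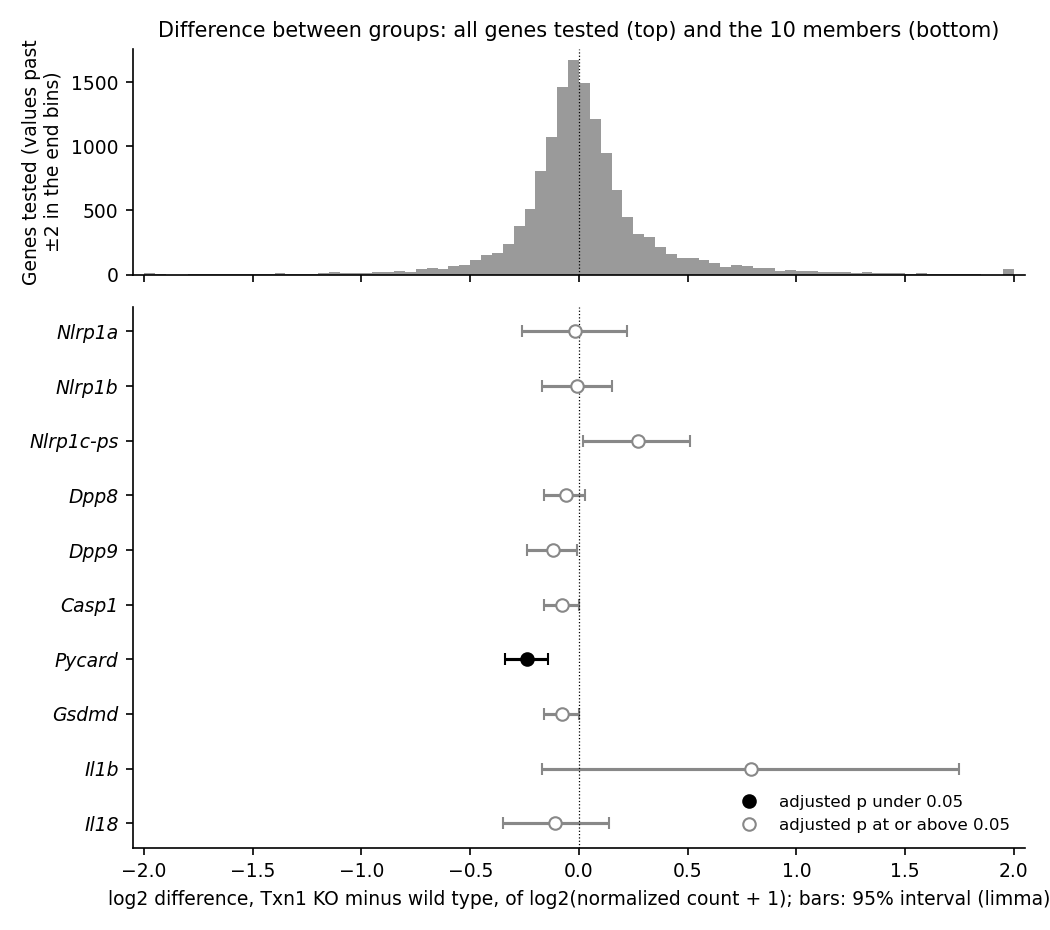
Top, the log2 differences (Txn1 KO minus wild type) of all 13977 genes tested; bottom, those of the 10 genes with 95% intervals from limma, filled where the adjusted p is under 0.05. Pycard at -0.24 is the called gene, and the interval of Il1b, from -0.17 to 1.75, is the widest of the 10.

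Per length of the principal annotated transcript (GENCODE M21), the members spanned a wide range of levels. Casp1 had 2320 ± 17.5 normalized counts per kb in Txn1 KO and 2452 ± 88.0 in wild type, followed by Gsdmd with 2041 ± 52.5 in Txn1 KO and 2153 ± 59.3 in wild type. Dpp8 and Dpp9 came next at 458.2 and 436.3 per kb in Txn1 KO and 478.1 and 475.5 in wild type, and their libraries overlapped. Nlrp1b had 310.3 ± 44.6 per kb in Txn1 KO and 310.1 ± 8.69 in wild type, and stood below Pycard and above Il18 in every library of its group. Nlrp1a and Nlrp1c-ps were at 49.8 and 52.1 per kb in Txn1 KO and 50.2 and 43.3 in wild type, and in Txn1 KO their libraries overlapped (44.0 to 53.8 for Nlrp1a and 50.9 to 53.3 for Nlrp1c-ps), so they were not separated there. Il1b was last, with 8.93 to 12.0 per kb in Txn1 KO and 3.76 to 7.45 in wild type. The order rests on the length used. For Pycard, the principal transcript of 3800 bases gives 364.0 per kb in Txn1 KO and 429.4 in wild type, and the other annotated one, of 493 bases, gives 2806 in Txn1 KO and 3310 in wild type. With all annotated exons as the length, Pycard had rank 3 and Dpp8 rank 7 in both groups. By that length Nlrp1b, at 203.5 per kb in Txn1 KO and 203.3 in wild type, was above Dpp9 (186.8) in Txn1 KO and level with it (203.5) in wild type, and Il18 was below Nlrp1b in Txn1 KO (193.7) and above it in wild type (208.3).

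**Figure D4:**
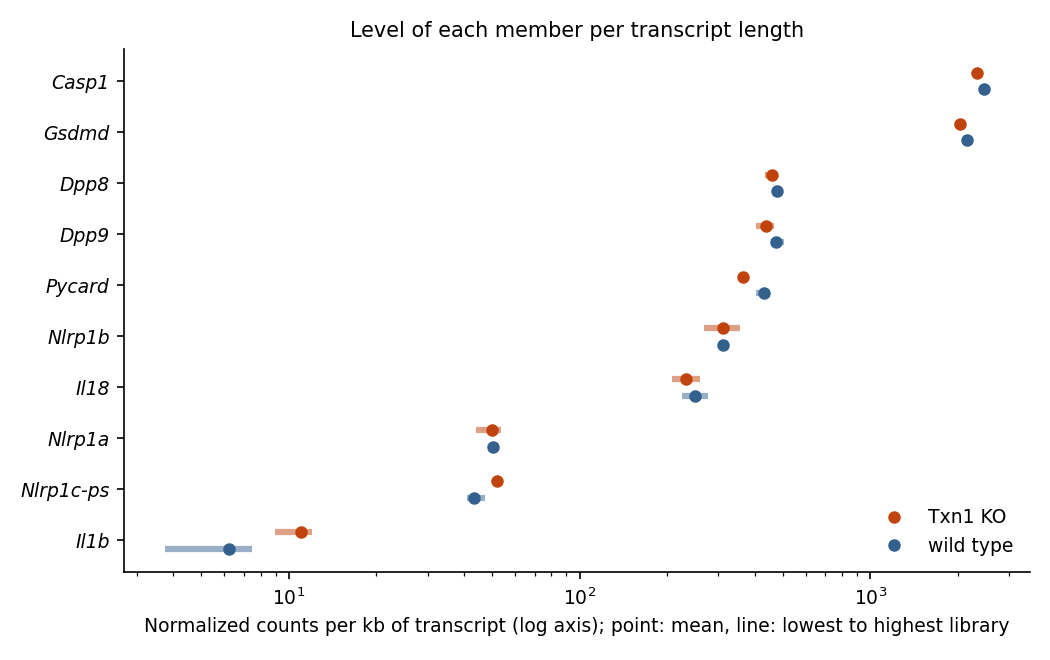
Normalized counts per kb of principal transcript on a log axis for the 10 genes, with Txn1 KO above wild type; points are means and lines run from the lowest to the highest library (n = 3). No library is below 1983 for Casp1 or Gsdmd, and Il1b is the lowest, at no more than 12.0 in Txn1 KO and 7.45 in wild type.

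Genes around the inflammasome were grouped into 6 lists, which held 59 genes tested. Of these 8 rose and 6 fell, beside 11.5% and 9.97% of all genes tested, so the counts are near the shares of genes at large. The same shares stand beside each list below, and a list holds only 5 to 15 genes tested. The count of 14 was 9 without wild-type library 2 or 3. The share of all genes called in those settings is not given here. With upper quartile scaling 5 rose and 9 fell, and Kcmf1, Ubr3 and Antxr2 did not pass. The members with the smallest p are named.

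Among 9 other peptidases, not all of the family of DPP8 and DPP9, 0 were called with limma, with edgeR or in the authors' deposited table. An unadjusted limma p under 0.05 was reached by 1 gene. That gene was Dpp3, a dipeptidyl peptidase, with 2971 ± 164 normalized counts in Txn1 KO and 3180 ± 29.5 in wild type (limma adjusted p = 0.117; it passed, at 0.0303, without Txn1 KO library 2, and at 0.0494 with upper quartile scaling). Pepd, prolidase, had 2453 ± 99.3 in Txn1 KO and 2595 ± 152 in wild type. The N-degron pathway brings proteins with a destabilizing N-terminus to the proteasome, and its ligase UBR2 acts on mouse NLRP1B after the toxin has cut it. Of its 11 genes tested 2 rose and 0 fell. Kcmf1, a ubiquitin ligase partner of UBR4, had 2968 ± 104 normalized counts in Txn1 KO and 2689 ± 96.4 in wild type (log2 0.14; limma adjusted p = 0.0232), and Ubr3 had 2219 ± 31.9 in Txn1 KO and 2018 ± 126 in wild type (log2 0.14; limma adjusted p = 0.0460). The call of Ubr3 was lost with edgeR (adjusted p = 0.0522) and with 11 other alternatives, and that of Kcmf1 without Txn1 KO library 1 (0.0959), library 3 (0.0538), wild-type library 2 (0.107) or library 3 (0.0644). Ubr2 itself did not pass (log2 0.06; limma adjusted p = 0.315).

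Of 5 genes of anthrax toxin entry, 1 rose and 1 fell. Antxr2, the main toxin receptor gene, had 3986 ± 123 normalized counts in Txn1 KO and 3672 ± 42.5 in wild type (log2 0.12; limma adjusted p = 0.0320), and this call was lost without Txn1 KO library 2 or 3 or any wild-type library (adjusted p 0.0521 to 0.111), and without the 2 libraries with liver transcripts (0.131). Itgb1, the integrin beta 1 chain, fell to 13954 ± 400 in Txn1 KO, against 15556 ± 159 in wild type (log2 -0.16; limma adjusted p = 0.00183). Its groups did not overlap.

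Regulators of ASC and caspase-1 had 3 genes that rose and 3 that fell among 11 tested, beside 11.5% and 9.97% of all genes tested. Whether this list differs from genes at large was not tested. Pydc3, a pyrin domain-only protein gene of mice, had 198.2, 222.0 and 179.0 normalized counts in Txn1 KO and 302.6, 348.9 and 436.8 in wild type. It fell to 55.6% of wild type (95% interval 46.3% to 66.7%; limma adjusted p = 7.85e-05), which was the biggest difference among the 59 genes. Mapk9, the kinase JNK2, rose by 0.26 on the log2 scale (limma adjusted p = 0.000686). Pstpip1, which binds pyrin, and Ptk2b, a kinase reported to act on ASC, rose by 0.17 and 0.14 (limma adjusted p = 0.00141 and 0.00359). Bcl2l1, an inhibitor of cell death, and Trim30a, a tripartite motif protein gene, fell, with log2 differences of -0.14 and -0.19 (limma adjusted p = 0.0190 and 0.0232). Pydc4, a related gene in this list, is not among the listed genes, and how reads of such relatives were divided was not examined.

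Among 8 other genes of pyroptosis and membrane repair, Ninj1, whose product ruptures the membrane of dying cells, rose to 10615 ± 53.5 normalized counts in Txn1 KO, against 8755 ± 405 in wild type (log2 0.28 ± 0.036, SE; limma adjusted p = 2.26e-05). The other 7, with Casp4, Casp8 and Gsdme among them, had differences from -0.07 to 0.10 and did not pass. In the interleukin-1 and interleukin-18 axis 1 of 15 rose and 2 fell. Il18bp, the secreted antagonist of interleukin-18, had 737.3, 662.1 and 671.6 normalized counts in Txn1 KO and 495.2, 487.2 and 511.5 in wild type, a rise to 138% (95% interval 125% to 153%; limma adjusted p = 6.04e-05). The groups were far apart in this gene, while those of Il18 overlapped. Il1rn, the interleukin-1 receptor antagonist, fell to 1885 ± 172 in Txn1 KO, against 2181 ± 63.5 in wild type (limma adjusted p = 0.0114; 0.0502 and 0.0579 without wild-type library 2 or 3). Myd88, the adaptor of the interleukin-1 and interleukin-18 receptors, fell to 87.4% of wild type (limma adjusted p = 0.00476).

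**Figure D5:**
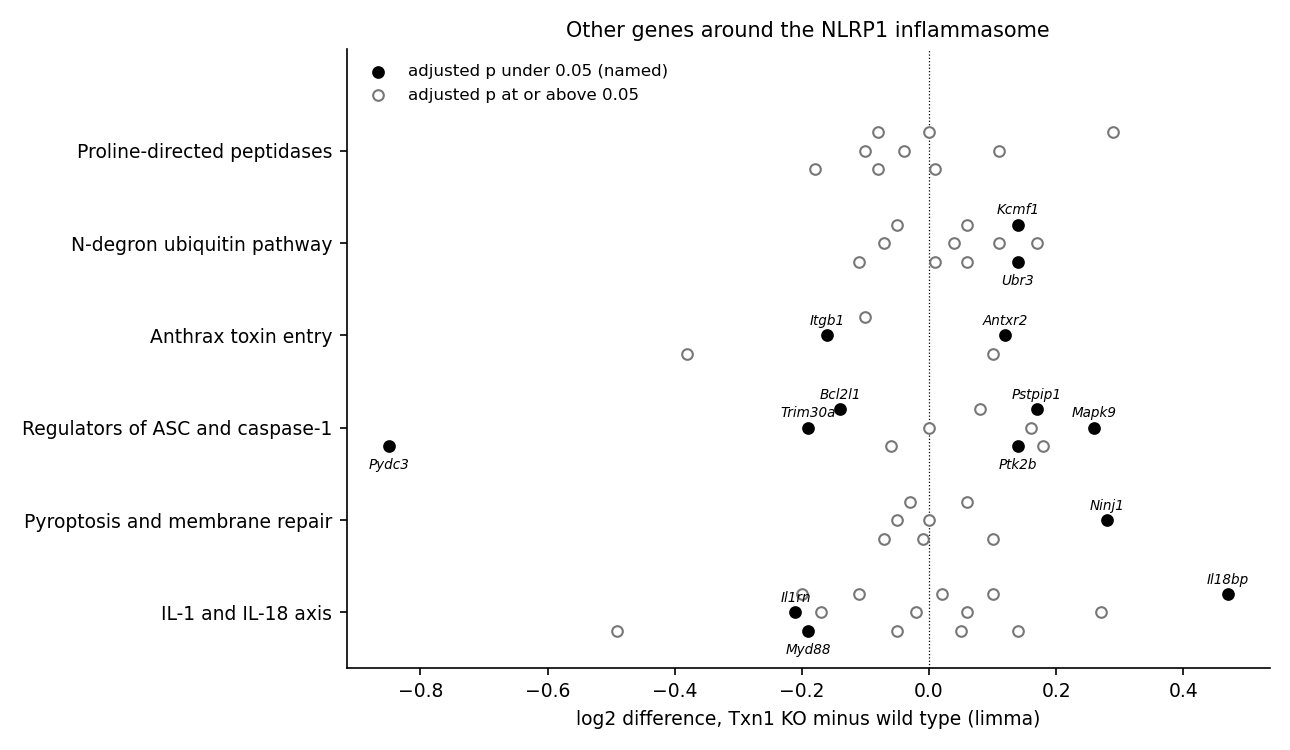
Log2 differences (Txn1 KO minus wild type, limma) of the 59 genes tested around the inflammasome, by list; filled points are genes with an adjusted p under 0.05 and are named. Pydc3 at -0.85 and Il18bp at 0.47 lie farthest from 0 among the called genes. The row name proline-directed peptidases is a label of that list and does not hold for each gene in it.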

How the data were processed

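Values came from 1 deposited table of 6 libraries. The tools named per the submitters' processing notes are STAR 2.5.2b, Trimmomatic 0.36, bcl2fastq 2.20 and, with no version, DESeq2, on GRCm38. The sources used here state no read counter, strand setting or annotation. The per-library signal deposited by the authors is a read count scaled by 1 factor for each library: 100% of values were whole multiples of the library's smallest step within 0.01 reads, which gave back the reads. The log2 fold changes, p-values and adjusted p-values in that table are the authors' own. Columns named BMDM were taken as wild type because the others are named Txn1KO.

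The main test was limma 3.58.1 (R 4.3.3) on log2(normalized count + 1), two-sided, with group as the only term and a prior variance that follows the level. This scale understates changes of low genes such as Il1b. Of the 14005 genes, 13977 had a mean of at least 10. Intervals are limma's 95% intervals. Alternatives were other pseudocounts, filters, thresholds and scalings, edgeR 4.0.16, DESeq2 1.42.0 and limma-voom on recovered reads, the replicate number as a block, and leaving out libraries. The fit was tested on simulated libraries, 3 against 3. It recovered 78% of genes with a log2 change of 0.5 and 98% of those with 1.0, and 10 of 186 calls were false. Smaller changes were not simulated, so this says nothing of the smaller differences among the members. A floor of 3 reads corresponded to 2.33 to 4.04 normalized counts, for counting error only. Positions and lengths came from GENCODE M21, and promoter windows from RefSeq. Named were the 10 genes, Txn1 and Lyz2, up to 4 called genes per list with the smallest p (2 genes where none was called), the 10 neighbours of the cluster and, for Nlrp1b, Nlrp1a and Pycard, the 3 genes most like them. Ubr2, Bcl2l1, Trim30a, Casp4, Casp8, Gsdme, Alb, Mertk, Fcgr1, Ccr7, Flt3, Zbtb46, Xcr1 and Siglech were named after their values were seen. The members and lists were chosen with earlier results of these data known. Whether replicates came from separate animals or cultures is not in the labels, so the p-values rest on a spread between samples that may be technical; no 2 libraries of a group were as alike as resequencing of 1 library would be (chi-square over its degrees of freedom, 6.14 to 29.6).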

Additional observations from a re-analysis of the deposited data

How the results depend on the processing

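The count of 1 called gene among the 10 was 1 under all 19 alternatives tried, and the call was Pycard each time, with log2 differences from -0.28 to -0.21 and adjusted p from 0.000591 to 0.0294. Leaving out each library in turn gave 9 to 14 called genes of the 59 around the inflammasome and -0.06 to 0.11 for the log2 ratio of the summed Nlrp1 paralogs. That ratio was 0.03 with all libraries, -0.06 without Txn1 KO library 3 and -0.0008 without Nlrp1c-ps in the sum. The sign also turned for Nlrp1a (0.07; range -0.08 to 0.07 without 1 library) and Nlrp1b (0.09; range -0.13 to 0.09 without 1 or 2) without Txn1 KO library 1, for Nlrp1b (0.01) without wild-type library 3, and for Txn1 without wild-type library 1 (0.0075; range from -0.05) or without both libraries with liver transcripts (0.0050). None of these was called on either side. With upper quartile scaling the 14 calls among the 59 were 5 higher and 9 lower in place of 8 and 6. At an adjusted p under 0.1, 2 neighbours of the cluster were called in place of 1. Same-numbered libraries did not deviate together (r of -0.268, 0.137 and -0.328), so the numbers were not taken as pairs. The highest r across the groups was 0.432, between Txn1 KO library 3 and wild-type library 1, the 2 with liver transcripts. What these 2 libraries share beyond those transcripts was not tested. With the replicate number as a block, 12 of the 59 genes and 1 of the 10 were called, and Antxr2 (limma adjusted p = 0.0552) and Ubr3 (0.0615) were not. Il1b has no value at a minimum mean of 50. The cause of these changes was not tested. Depth limits Il1b above all, at 5 to 17 reads per library.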

Other observations

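The spread of Nlrp1b among the Txn1 KO libraries was wide for its level. Its coefficient of variation was 14.4% in Txn1 KO and 2.80% in wild type. Counting error alone gives about 2.98% at its depth in Txn1 KO. Of 1374 genes with a mean within 0.8 to 1.2 times that of Nlrp1b, the median coefficient of variation in Txn1 KO was 3.92%, and 0.364% of them reached that of Nlrp1b. In wild type 66.8% of these genes varied at least as much as Nlrp1b. Nlrp1c-ps, Pycard and Casp1 varied little in Txn1 KO, at 2.32%, 0.971% and 0.756%, below their counting errors of about 7.94%, 2.86% and 1.81%. In Txn1 KO 96.2%, 94.8% and 94.5% of genes of like level varied at least as much. In wild type their coefficients were 8.30%, 4.84% and 3.59%. With 3 libraries a group these are descriptions of these libraries, and the difference in spread was not tested.

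Among 10231 genes with a mean of at least 100, those whose centred log2 values over the 6 libraries were nearest to Nlrp1b were the pseudogene Tmem181b-ps, Top1mt, a mitochondrial topoisomerase gene, and the zinc finger gene Zfp28, at a root mean square difference of 0.031, 0.031 and 0.035. Nlrp1a lay at 0.085 and Nlrp1c-ps at 0.193 from Nlrp1b. For Nlrp1a the nearest were Gm37795, Rhot2 and Accs (0.023, 0.028 and 0.028). For Pycard they were Eef2, a translation elongation factor gene, Atp13a2 and Evi2a (0.022, 0.025 and 0.026). These are descriptions over 6 libraries, and nothing is read from these names.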
